A study of Homo sapiens with 9 samples.

Results

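HKC-8 is an established line of human kidney proximal tubular epithelial cells, and the cells described here had been given only the empty plasmid vector pcDNA3. They are the 3 control libraries of a series of 9, chosen by their treatment label (control replicates 1, 2 and 3). The other libraries came from the same line given the Wnt1 plasmid (Wnt1, n = 3) or the Wnt1 plasmid together with KP6, a peptide derived from Klotho (Wnt1_KP6, n = 3). All 9 libraries were poly(A) RNA-seq with the same batch label, 1, and the labels give no time point and no passage. The labels do not say that replicates were separate cultures, so the spread between them may be technical. The question taken up is which genes of the nephron, of epithelial and mesenchymal cells, and which transporters and receptors the transfected control line carried as RNA.

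The proximal tubule reclaims filtered glucose, phosphate, amino acids, proteins and organic acids through carriers and endocytic receptors on a brush border, driven by the sodium pump of the basolateral side. Its mature programme depends on the nuclear receptor HNF4A, while PAX8 and LHX1 are kidney lineage factors already used in the embryo. Cultured tubular lines often keep lineage factors and simple epithelial keratins and carry less of the transport programme than the tissue. HKC-8 was immortalised with a hybrid of an adenovirus and a simian virus.

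Levels were compared between genes as FPKM, fragments per kilobase of transcript scaled to the size of the library. A gene was called expressed at 1 FPKM or more in all 3 control libraries, lacking under 0.1 FPKM in all 3, and low or mixed otherwise. Of 20323 genes in the table, 11055 were expressed (54.4%), 6329 were lacking (31.1%) and 4255 had 0 counts in all 3 control libraries (20.9%). The 26 gene lists held 893 distinct genes, of which 411 were expressed, 202 low or mixed and 280 lacking. A count of 0 over the 79685240 counts of the 3 libraries allows up to 3 counts, or 0.0376 CPM (counts scaled to the total), for counting error only. In bulk RNA, fewer cells with a gene and less of its RNA per cell cannot be told apart.

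Control replicates 1, 2 and 3 summed to 27140742, 26726410 and 25818088 expected counts, and 15172, 14971 and 14983 genes had a count. Control replicate 1 stood apart from the other two. Of the 11055 expressed genes, 531 differed by more than 2-fold between replicates 1 and 2 and 666 between replicates 1 and 3, against 19 between replicates 2 and 3. Replicate 1 also had the lowest share of mitochondrial counts, 5.18% against 7.12% and 7.97%. Most levels are therefore given for each of the 3 libraries. Without control replicate 1 the table had 11212 expressed and 6756 lacking genes.

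**Figure D1:**
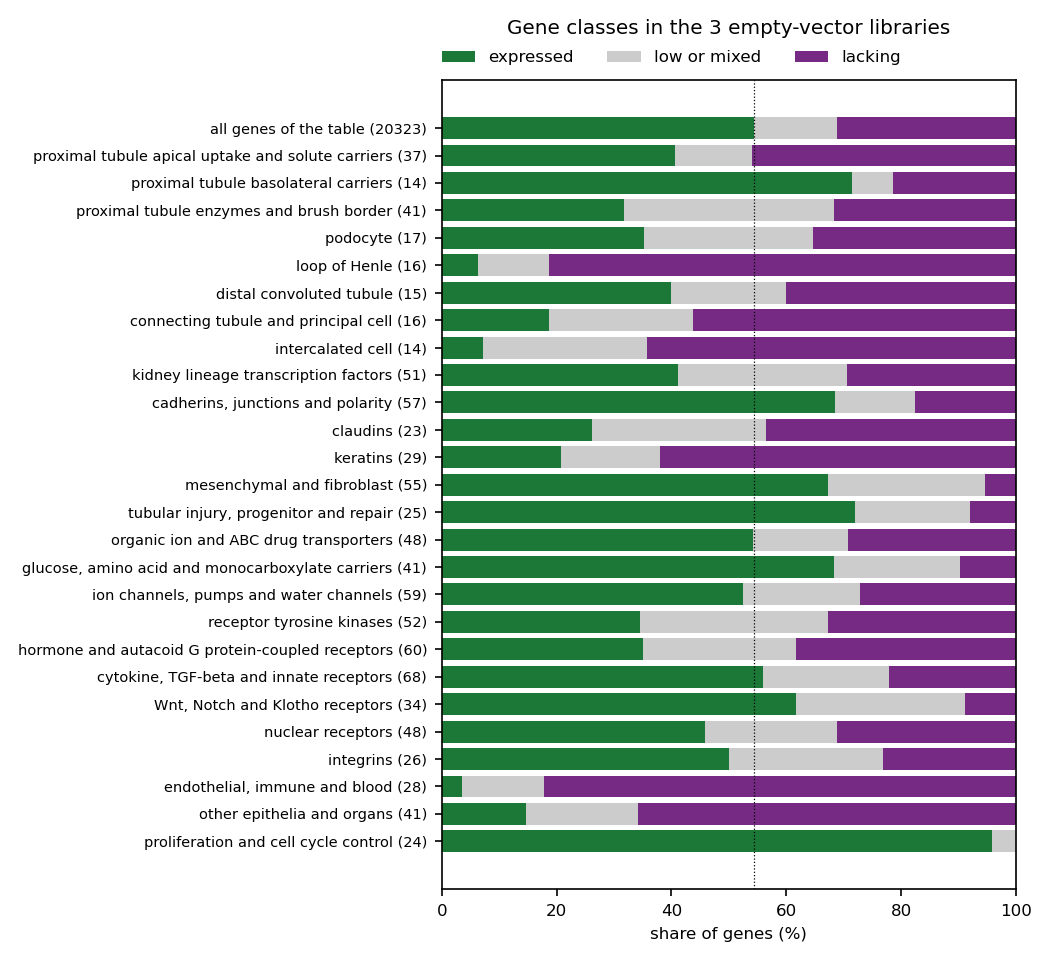
Share of genes (%) that were expressed, low or mixed, or lacking in the 3 empty-vector libraries, for all 20323 genes of the table and for each list, with the number of genes in brackets; the dotted line is the share expressed over all genes, 54.4%. Of the 26 lists, proliferation had the highest expressed share (23 of 24 genes) and endothelial, immune and blood genes the lowest (1 of 28).

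The kidney lineage was carried by PAX8 and LHX1 and not by PAX2 or HNF4A. PAX8, a paired-box factor of the developing and adult tubule (GRCh38, as all gene positions here, chr2:113215997-113278950, minus strand), stood at 167, 161 and 206 FPKM in control replicates 1, 2 and 3. LHX1, needed for early nephron patterning, stood at 10.8, 17.0 and 21.01 FPKM. For both factors the libraries lay within 2-fold, and the genes ranked 319 and 4825 among all genes by mean level.

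HNF4A, the nuclear receptor that drives the mature proximal programme (chr20:44355700-44434596, plus strand), had 0, 3 and 0 counts, or 0, 0.049 and 0 FPKM. PAX2, the partner of PAX8 in the embryonic kidney, was at 0.089, 0.035 and 0.031 FPKM. SIX2, the factor of nephron progenitors, was at 0.184, 0.017 and 0.158 FPKM. In all, 21 of 51 lineage factors were expressed (41.2%), below the 54.4% of all genes, and 15 were lacking. None of the 21 differed by more than 2-fold between control libraries, against 6.77% of all expressed genes.

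Among the other lineage factors, HOXA9 stood at 55.3, 49.6 and 56.7 FPKM and HOXA10 at 18.7, 17.6 and 17.5 FPKM. The HOX genes place tissue along the body axis, and the clusters were unequally used. HOXA had 9 of 11 genes expressed, HOXD 5 of 9, HOXB 4 of 10 and HOXC 0 of 9, a count made after values had been seen. HOXA11 and HOXD11, factors of the metanephric kidney, were expressed at 1.502 and 4.09 FPKM on average, also named after their values were seen. Reads of HOXD11 may be shared, since 21.4% of its exon length overlaps another gene. CUX1, a homeobox repressor, stood at 45.0, 37.9 and 42.7 FPKM.

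Of the 3 proximal tubule lists, the basolateral carriers were the most complete and the enzymes of the brush border and metabolism the least. Expressed were 10 of 14 basolateral genes, 15 of 37 apical uptake genes and 13 of 41 enzymes. The 2 apical endocytic receptors were lacking. LRP2, or megalin, had 0, 0 and 2 counts, and CUBN, or cubilin, had 14, 5 and 8 counts at 0.043, 0.016 and 0.026 FPKM. DAB2, the adaptor that links megalin to clathrin, was expressed at 4.96 FPKM on average and is named after its value was seen.

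Other apical carriers ranged from lacking to expressed. SLC34A1, an apical phosphate carrier (chr5:177379235-177398848, plus strand), had 0, 2 and 1 counts. SLC5A2, the glucose carrier SGLT2, was at 0.423, 0.148 and 0.212 FPKM, with 31.1% of its exon length shared with a gene on the opposite strand. SLC9A3, the apical sodium-hydrogen exchanger, was expressed at 1.461, 1.815 and 1.892 FPKM and is named after its values were seen. Phosphate uptake genes of wider tissue use were present, namely SLC20A1 at 40.3, 32.5 and 28.6 FPKM and SLC20A2 at 8.98, 6.77 and 7.93 FPKM. PDZK1, a scaffold of apical carriers, stood at 56.8, 16.8 and 14.7 FPKM, and SLC17A1, a urate and phosphate carrier, at 36.0, 7.83 and 6.89 FPKM. Both were highest in control replicate 1. The scaffold SLC9A3R1, or NHERF1, was even across libraries at 19.0, 20.998 and 21.6 FPKM.

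On the basolateral side ATP1B1, the beta subunit of the sodium pump, stood at 47.9, 40.1 and 35.7 FPKM. FXYD2, the regulatory subunit of the pump, was at 85.7, 7.57 and 8.93 FPKM, 10.4-fold higher in control replicate 1 than in the mean of the others. The potassium channel gene KCNJ16 showed the same order, with 24.2, 4.64 and 3.64 FPKM. SLC4A4, which moves bicarbonate out of the cell, stood at 4.38, 5.56 and 5.43 FPKM. SLC2A1, the general glucose carrier, was at 71.5, 130.5 and 144 FPKM, whereas SLC2A2, the carrier of the mature proximal cell, was at 0.796, 0.331 and 0.429 FPKM. Their means were 115 and 0.519 FPKM, and SLC2A1 was the higher in every library.

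Among enzymes, GGT1, gamma-glutamyltransferase of the brush border, stood at 112, 100.4 and 118 FPKM, although reads of its near-identical relatives may be assigned to it. MME, or neprilysin, stood at 20.1, 18.0 and 15.7 FPKM and EZR, or ezrin, which anchors microvilli to actin, at 119.6, 126 and 121 FPKM. DPP4, another brush border peptidase, was at 62.4, 23.6 and 21.99 FPKM. Aminopeptidase N, ANPEP, was at 0.070, 0.031 and 0.140 FPKM, low in all 3. Enzymes of the same brush border thus differed, GGT1 and MME being expressed and ANPEP low or mixed.

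Gluconeogenic genes had almost no RNA. PCK1 had 3, 1 and 0 counts, and FBP1 had 2, 0 and 0. CYP24A1, which inactivates vitamin D, had the highest mean of the enzyme list, at 43.8, 202 and 200.2 FPKM. It was 4.59-fold lower in control replicate 1 than in the mean of the others, and in replicate 1 it lay below CA2, EZR and GGT1. CA2, the cytosolic carbonic anhydrase, ran the other way at 121, 35.2 and 32.5 FPKM, as did the secreted peroxidase GPX3 at 78.6, 17.2 and 19.6 FPKM. Of the 13 proximal tubule markers taken alone, 3 were expressed (SLC4A4, GGT1 and MME), 3 were low or mixed and 7 were lacking, with summed levels of 138, 124 and 139.99 FPKM to which GGT1 gave the most. Few defining markers of the line's proximal tubule origin were thus present in these libraries.

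**Figure D2:**
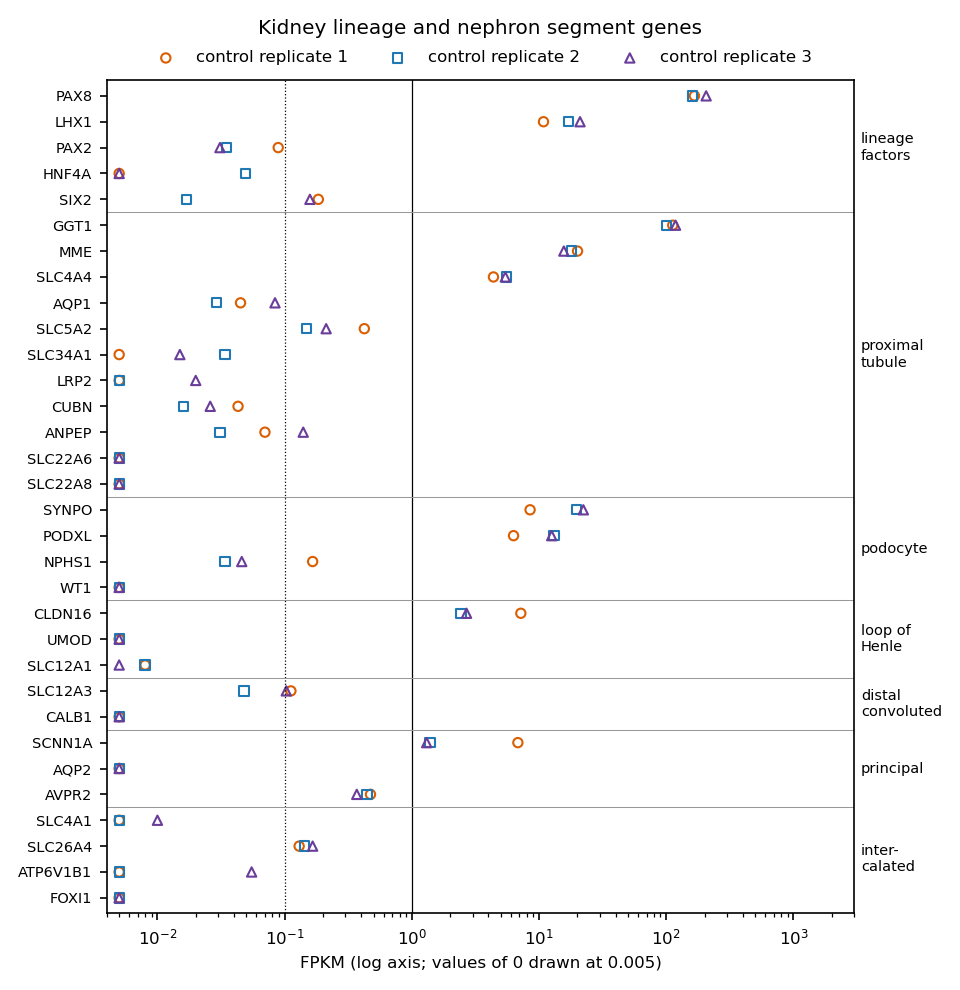
FPKM (log axis, values of 0 drawn at 0.005) of kidney lineage factors and nephron segment genes in control replicates 1, 2 and 3, one symbol per library. PAX8, GGT1 and MME lie above 15 FPKM in every library, while LRP2, CUBN, SLC34A1, SLC22A6, SLC22A8, UMOD and AQP2 lie under 0.1.

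Of the later nephron segments, the loop of Henle, principal cell and intercalated cell lists had few expressed genes. The distal convoluted list had a share of 40.0%, close to the 40.5% of the apical uptake list. Of 16 loop of Henle genes only CLDN16, a paracellular magnesium claudin, was expressed, at 7.19, 2.44 and 2.69 FPKM. UMOD, or uromodulin, had 0 counts, and SLC12A1, the loop's sodium-potassium-chloride carrier, had 1, 1 and 0. SLC12A3, the thiazide-sensitive carrier of the distal convoluted tubule, was at 0.112, 0.048 and 0.103 FPKM, and CALB1 had 0 counts. The 6 of 15 distal convoluted genes that were expressed were led by WNK1, a kinase present in many cells, at 94.3, 69.5 and 79.0 FPKM.

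Of 16 connecting tubule and principal cell genes 3 were expressed. NEDD4L, a ubiquitin ligase acting on sodium channels, stood at 43.7, 59.6 and 60.2 FPKM, and the kinase SGK1 at 18.2, 19.9 and 17.4 FPKM. SCNN1A, the alpha subunit of the epithelial sodium channel, was at 6.82, 1.39 and 1.31 FPKM. AQP2, the water channel of principal cells, had 0 counts, and AVPR2, its vasopressin receptor, was at 0.473, 0.445 and 0.369 FPKM. Of 14 intercalated cell genes CA2 alone was expressed, and SLC4A1, ATP6V1B1 and FOXI1 were lacking. For ATP6V1B1, 62.4% of its exon length overlaps another gene of the same strand.

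Of 17 podocyte genes 6 were expressed and 6 lacking. ACTN4, an actin crosslinker, stood at 158, 217 and 258 FPKM, KIRREL1 at 122, 93.0 and 98.6 FPKM and CD2AP at 26.2, 29.96 and 25.5 FPKM. SYNPO and PODXL, at 16.8 ± 7.32 and 10.7 ± 3.78 FPKM (mean ± SD, n = 3), were lowest in control replicate 1. The slit diaphragm gene NPHS1 was at 0.166, 0.034 and 0.046 FPKM, and WT1 had 0 counts. Over all 8 segment lists, 54 of 169 genes were expressed (32.0%) and 76 were lacking (45.0%), against 54.4% and 31.1% of the whole table.

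The cells carried an epithelial junction programme with neural cadherin and without epithelial cadherin. CDH1, or E-cadherin (chr16:68737225-68835548, plus strand), had 4, 1 and 0 counts, or 0.079, 0.009 and 0 FPKM. CDH2, or N-cadherin, which is also the main classical cadherin of the proximal tubule, stood at 26.6, 54.5 and 50.1 FPKM. CDH6, a kidney cadherin of the proximal lineage, was at 26.4, 8.41 and 7.22 FPKM, and CDH16, the kidney-specific cadherin, at 6.31, 1.47 and 1.74 FPKM. Control replicate 1 was thus the lowest library for CDH2 and the highest for CDH6 and CDH16.

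The catenins that join cadherins to actin were high and even, with CTNNB1 at 113, 109 and 113 FPKM and CTNNA1 at 116, 143 and 139 FPKM. EPCAM, an epithelial adhesion protein, stood at 59.1, 41.7 and 37.4 FPKM. TJP1 and OCLN of the tight junction were at 49.9 ± 10.1 and 9.72 ± 2.95 FPKM (mean ± SD, n = 3). DSG2, a desmosomal cadherin, was at 103, 71.9 and 63.1 FPKM. In all, 39 of 57 cadherin, junction and polarity genes were expressed (68.4%), and 10 were lacking. Among the lacking ones, named after their values were seen, were ESRP1, an epithelial splicing regulator, and OVOL1, a factor that represses mesenchymal genes.

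Of 23 claudins, the proteins that set the permeability of tight junctions, 6 were expressed. CLDN1, a barrier claudin (chr3:190305701-190322475, minus strand), was the highest at 403, 106 and 97.8 FPKM, 3.95-fold higher in control replicate 1 than in the mean of the others. CLDN2, the cation and water pore of the proximal tubule, was at 3.81, 0.308 and 0.146 FPKM and so passed 1 FPKM in that library alone. CLDN12 was even at 31.9, 33.3 and 25.8 FPKM. CLDN4, at 8.47, 2.88 and 2.59 FPKM, again was highest in replicate 1.

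Of 29 keratins 6 were expressed and 18 lacking, and the 3 highest on average, KRT18, KRT7 and KRT8, are keratins of simple epithelium. KRT18 stood at 223, 267 and 267 FPKM and its partner KRT8 at 183, 229 and 249 FPKM, both with pseudogenes that could share their reads. KRT7 (chr12:52232520-52252186, plus strand) was at 66.9, 295 and 332 FPKM, 4.68-fold lower in control replicate 1 than in the mean of the others. KRT19, a keratin of ducts and of injured tubules, was at 4.68, 1.97 and 1.98 FPKM. The other expressed keratins, named after their values were seen, were KRT80 at 29.2, 44.4 and 49.4 FPKM and KRT10, a keratin of differentiating epidermis, at 2.34, 1.89 and 3.31 FPKM. KRT5 and KRT14, the basal keratins of stratified epithelium, had 0 counts.

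Mesenchymal genes were widely present beside this epithelial set. Of 55 genes on the mesenchymal and fibroblast list 37 were expressed (67.3%) and 3 were lacking (5.45%), against 54.4% and 31.1% of all genes. Without control replicate 1, 10 of the 55 were lacking. VIM, or vimentin, stood at 732, 981 and 1054 FPKM and ranked 55 of all genes. FN1, or fibronectin, stood at 649.8, 737 and 768 FPKM and ranked 77. Both were above every keratin in every control library. ITGB1, the beta-1 integrin, was even at 356, 375 and 333 FPKM.

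The widest gap between control libraries among expressed list members also lay in this list. TAGLN, the actin-binding transgelin (chr11:117199321-117204782, plus strand), was at 4.40, 98.5 and 115 FPKM, 24.3-fold lower in control replicate 1 than in the mean of the others. TGFBI, a matrix protein induced by TGF-beta (chr5:136028895-136063818, plus strand), was at 95.2, 1164 and 1213 FPKM. The matricellular gene CCN1 was at 89.2, 494 and 547 FPKM. This list was chosen with earlier results of these data known, so its shares cannot be read apart from that choice. Of the 37 expressed members 15 differed by more than 2-fold between libraries (6.77% of all expressed genes did). In 11 of the 37, control replicate 1 was lower by 2-fold or more than the mean of the others (2.06% of all expressed genes), and it was 2-fold higher in 0 (3.02%). Members seen almost only in control replicate 1, namely COL1A2, COL3A1, COL6A3, LUM, DCN and MMP2, are not among the 37. The count of 0 higher members therefore does not cover them.

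ZEB1, ZEB2 and TWIST1, transcription factors of the epithelial-mesenchymal transition, were expressed and stayed within 2-fold between control libraries. ZEB1 stood at 8.77, 8.58 and 7.36 FPKM, ZEB2 at 4.75, 5.71 and 4.20 FPKM and TWIST1 at 4.21, 4.67 and 4.35 FPKM. SNAI2, POSTN and TWIST2 were the 3 lacking members, named after their values were seen. ACTA2, smooth muscle actin, was at 2.73, 2.23 and 1.39 FPKM, COL1A1 at 6.67, 4.74 and 6.69 FPKM, PDGFRB at 0.342, 0.126 and 0.071 FPKM and PDGFRA at 0.138, 0 and 0 FPKM. Summed over 7 fibroblast markers the level was 14.1, 9.58 and 11.1 FPKM, and COL1A1 with TWIST1 made up most of it.

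Among collagens and laminins, counted as families after values had been seen, the highest were chains of the basement membrane. COL4A2 and COL4A1, the chains of type IV collagen, stood at 280.0 and 218 FPKM on average and COL18A1 at 103 FPKM, and 15 of 44 collagens were expressed. LAMB1 was at 380.3, 181 and 174 FPKM and LAMC1 at 179, 100.1 and 95.8 FPKM, both highest in control replicate 1. Of 12 laminin chains 9 were expressed.

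Genes of tubular injury and repair were expressed in 18 of 25 cases, a share of 72.0%, without any injury treatment named in the labels. SPP1, or osteopontin, stood at 2323, 845 and 840.3 FPKM, and HAVCR1, or KIM-1, the receptor shed by injured proximal cells (chr5:157029413-157059119, minus strand), at 176, 156 and 149.9 FPKM. LCN2, or NGAL (chr9:128149071-128153455, plus strand), was at 788, 97.6 and 104 FPKM, 7.82-fold higher in control replicate 1 than in the mean of the others. CLU, or clusterin, followed the same order at 363, 58.7 and 75.2 FPKM. HAVCR1 therefore lay within a narrow range while LCN2 and CLU did not.

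Other members of the injury list had replicate 1 lowest. TPM1, a tropomyosin, was at 134, 658 and 641 FPKM, and ALDH1A3, a retinaldehyde dehydrogenase, at 4.78, 34.6 and 34.6 FPKM. In all, 11 of the 18 expressed members differed by more than 2-fold between control libraries, 7 with replicate 1 high by 2-fold and 3 with it low. VCAM1, a gene of tubular cells that fail to repair, was at 0.185, 0.015 and 0.016 FPKM. SOX9, a regenerative factor, was at 2.49, 1.25 and 1.51 FPKM. PROM1, a progenitor surface marker, was lacking and is named after its value was seen.

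**Figure D3:**
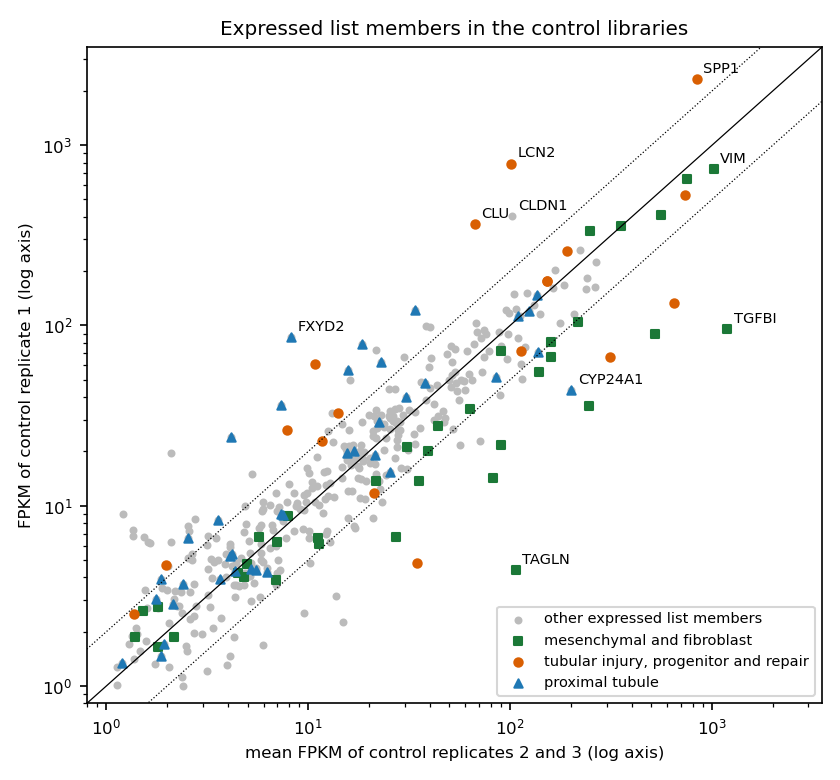
FPKM of each expressed list member in control replicate 1 against its mean in control replicates 2 and 3 (both log axes); the solid line marks equal levels and the dotted lines 2-fold differences. Mesenchymal genes such as TAGLN and TGFBI lie below the lines, and LCN2, CLU, CLDN1 and FXYD2 lie above them.

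Carriers of drugs and organic anions were unevenly kept. SLC22A6 and SLC22A8, the organic anion transporters OAT1 and OAT3 of the basolateral proximal tubule, lie side by side (chr11:62936385-62984983 and chr11:62989154-63015839, minus strand) and had 0 counts in all 3 libraries. SLC22A2, the organic cation transporter, had 5, 0 and 0 counts, and SLC47A1, its apical partner MATE1, had 1, 2 and 1. SLC47A2, or MATE2, was expressed at 6.73, 1.61 and 1.47 FPKM. Over the SLC22 family, counted after values had been seen, 4 of 22 genes were expressed and 14 lacking.

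Among ATP-driven exporters, ABCC3 stood at 66.2, 36.2 and 45.2 FPKM, ABCC4 at 33.4, 27.2 and 23.3 FPKM and ABCC1 at 20.1, 17.2 and 18.8 FPKM. ABCB1, the multidrug exporter P-glycoprotein, was at 26.02, 13.4 and 11.5 FPKM, whereas ABCG2, the urate and drug exporter, was at 0.184, 0.133 and 0.205 FPKM. Among anion carriers SLCO2B1 was the highest at 45.5, 44.7 and 57.3 FPKM. SLCO4C1, the kidney's digoxin and thyroid hormone carrier, was at 8.95, 1.27 and 1.146 FPKM. Of the 48 genes of this list 26 were expressed (54.2%, beside 54.4% of all genes) and 14 lacking.

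Nutrient carriers of dividing cells stood high. SLC16A3, which exports lactate, was at 85.5, 96.9 and 122 FPKM and SLC16A1 at 49.8, 68.7 and 60.4 FPKM. The glutamine carriers SLC38A1 and SLC1A5 were at 92.4, 71.8 and 65.8 FPKM and at 41.3, 89.3 and 88.9 FPKM. SLC3A2 and SLC7A5, the 2 chains of a large neutral amino acid exchanger, were at 73.8 ± 19.4 and 54.7 ± 27.96 FPKM (mean ± SD, n = 3), both lowest in control replicate 1. In this list 28 of 41 genes were expressed (68.3%) and 4 lacking, or 7 lacking without control replicate 1. Over the whole solute carrier superfamily 183 of 372 genes were expressed (49.2%).

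Water channels were nearly absent from the RNA. AQP1, the constitutive water channel of the proximal tubule, had 3, 2 and 3 counts at 0.045, 0.029 and 0.084 FPKM, and 26.5% of its exon length overlaps another gene. Of 13 aquaporins, counted after values had been seen, 0 were expressed and 8 were lacking. Calcium, anion and mechanosensitive transport genes were present. ATP2A2, the calcium pump of the endoplasmic reticulum, stood at 89.6, 102 and 93.1 FPKM, SLC4A2, an anion exchanger, at 76.1, 110.3 and 128 FPKM and PIEZO1, a stretch-gated channel, at 21.8, 53.7 and 58.9 FPKM. In all 31 of 59 channel and pump genes were expressed (52.5%).

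By mean level, growth factor receptors were led by MET and EGFR. The order differed between libraries, with FGFR1 above MET in control replicate 1 and AXL above MET in control replicate 3. MET, the receptor of hepatocyte growth factor, stood at 91.8, 92.0 and 83.2 FPKM, and EGFR at 66.9, 74.8 and 74.1 FPKM. AXL, the receptor of GAS6, was at 21.8, 86.4 and 94.3 FPKM, and FGFR1 at 98.0, 39.4 and 40.6 FPKM, so that replicate 1 was lowest for the former and highest for the latter. RET, the receptor of the ureteric bud, was at 0.032, 0.074 and 0.147 FPKM, and KDR, the endothelial growth factor receptor, had 0 counts. Of 52 receptor tyrosine kinases 18 were expressed (34.6%).

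Of 60 hormone and autacoid G protein-coupled receptors 21 were expressed (35.0%), 16 were low or mixed and 23 lacking (38.3%). AGTR1, the angiotensin II receptor, had 0, 0 and 1 counts, and PTH1R, the parathyroid hormone receptor, was at 0.435, 0.407 and 0.756 FPKM. ADORA1, an adenosine receptor, was at 32.8, 10.7 and 15.4 FPKM. LGR4, the R-spondin receptor that strengthens Wnt signals, was at 19.7, 2.35 and 1.84 FPKM, 9.41-fold higher in control replicate 1 than in the mean of the others. ADGRG1, an adhesion receptor, was the highest of the 60 genes at 65.4, 84.8 and 107 FPKM.

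Receptors that bear on the study's treatments, Wnt1 and a Klotho peptide, were partly present. Of 10 Frizzled receptors 4 were expressed, a count made after values had been seen, namely FZD6, FZD2, FZD1 and FZD5. FZD6 was the highest at 29.2, 30.1 and 26.8 FPKM, and the coreceptor LRP6 stood at 15.3, 11.4 and 12.6 FPKM. KL, or Klotho itself, a coreceptor of FGF23, was low and even at 0.845, 0.746 and 0.742 FPKM, from 115, 100 and 96 counts. NOTCH2 stood at 49.6, 57.0 and 56.9 FPKM, with near-identical copies that could share its reads. SDC1 and SDC4, heparan sulphate proteoglycans, were at 152 ± 45.6 and 119 ± 25.9 FPKM (mean ± SD, n = 3). In all 21 of 34 genes of this list were expressed (61.8%) and 3 were lacking. The lacking genes numbered 5 without control replicate 3 and 7 when the mean FPKM was used.

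Cytokine and TGF-beta receptors were expressed in 38 of 68 cases (55.9%), close to the 54.4% of all genes. TNFRSF1A, the main TNF receptor, stood at 89.4, 73.6 and 78.4 FPKM, IL6ST, the shared chain of IL-6 family receptors, at 48.5, 38.9 and 33.4 FPKM and TGFBR2 at 17.6, 19.3 and 17.9 FPKM. Of 10 Toll-like receptors, counted after values had been seen, only TLR3 was expressed, and TLR4, the endotoxin receptor, had 5, 6 and 0 counts. IL20RB was at 2.26, 15.3 and 14.5 FPKM, lowest in control replicate 1.

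Of 48 nuclear receptors 22 were expressed (45.8%). The glucocorticoid receptor NR3C1 stood at 10.5, 10.7 and 8.84 FPKM and RXRA, the shared partner of many nuclear receptors, at 16.9, 14.7 and 17.8 FPKM. VDR, the vitamin D receptor, was at 1.003, 2.201 and 2.58 FPKM. The mineralocorticoid receptor NR3C2 was low at 1.16, 0.408 and 0.425 FPKM, and ESR1 was lacking. Among integrins 13 of 26 were expressed. ITGAV stood at 162, 173 and 153 FPKM and ITGA3, a laminin-binding chain, at 116, 195 and 218 FPKM. ITGB3 was at 73.3, 21.96 and 21.1 FPKM, but 51.6% of its exon length overlaps another gene of the same strand.

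Markers of other cell types were near 0, with a few exceptions. Of 28 endothelial, immune and blood genes CD68 alone was expressed, at 26.2, 23.8 and 33.0 FPKM. It encodes a lysosomal protein found outside macrophages too, and PTPRC, the pan-leukocyte marker, had 0 counts. The summed level of 3 endothelial markers was 0.030, 0 and 0.089 FPKM and that of 4 immune markers 0.212, 0 and 0.086 FPKM. The lung markers NKX2-1 and SFTPC had 0 counts in each library, and CDX2 of the intestine had 0, 1 and 0. Of 41 genes of other epithelia and organs 6 were expressed, among them SERPINA1, or alpha-1 antitrypsin, at 36.5, 42.6 and 41.3 FPKM and CPS1, a urea cycle enzyme, at 5.80, 7.09 and 5.79 FPKM. POU5F1 was also expressed, at 4.80, 4.07 and 4.69 FPKM, and has near-identical copies.

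Proliferation genes were the most complete list, with 23 of 24 expressed and 0 lacking, and 0 of the 23 differed by more than 2-fold between control libraries. MKI67 stood at 48.0, 53.3 and 54.8 FPKM, TOP2A at 123, 115 and 97.6 FPKM and PCNA at 202, 173 and 159 FPKM. CDKN2A, the inhibitor that opposes CDK4, was at 163, 222 and 302 FPKM beside CDK4 at 261, 216 and 227 FPKM, although 43.2% of the exon length of CDK4 overlaps a gene on the opposite strand. TERT was the 1 member that was low or mixed, named after its value was seen.

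Among protein-coding genes encoded in the nucleus the most abundant RNAs were EEF1A1 at 8718, 7375 and 6886 FPKM, FTL, the light chain of ferritin, at 6555, 5290.4 and 5890.5 FPKM, and GAPDH at 4794, 5583 and 6092 FPKM. MT2A, a metal-binding metallothionein, was at 915, 4102 and 4992 FPKM and so varied among the most abundant genes. Apart from MT2A, each of the 15 most abundant of these genes stayed within 2-fold between libraries.

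The lists were chosen with earlier results of these data known, so the shares that follow cannot be read apart from that choice. Over all lists 88 of the 411 expressed members differed by more than 2-fold between control libraries, a share of 21.4% against 6.77% of all expressed genes. Control replicate 1 was at least 2-fold higher than the mean of the others in 43 of them (3.02% of all expressed genes were) and lower by 2-fold or more in 35 (2.06%). It was high in 12 and low in 3 of the 54 expressed nephron genes, high in 11 and low in 3 of the 51 expressed epithelial genes, and high in 0 and low in 11 of the 37 expressed mesenchymal genes. Among transporters it was high in 6 and low in 5 of 85 expressed genes, and among receptors high in 10 and low in 12 of 120. Only members at 1 FPKM or more in every control library enter these counts. COL1A2, COL3A1, COL6A3, LUM, DCN and MMP2 of the mesenchymal list, seen almost only in replicate 1, are therefore left out. ALDH1A1 of the injury list, near 0 in replicate 1, is left out likewise. The replicates were not compared by a test, since they form 1 group.

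The same genes were followed in the other groups. TAGLN was at 2.53, 16.7 and 23.5 FPKM in Wnt1 replicates 1, 2 and 3 and at 3.02, 47.8 and 45.9 FPKM in Wnt1_KP6, lowest in replicate 1 of each group. LCN2 was at 569, 206 and 216 FPKM in Wnt1 and at 619, 193 and 193 FPKM in Wnt1_KP6, highest in replicate 1 of each. TAGLN lay below the same-numbered control library in every library of both treated groups. LCN2 lay below it in replicate 1 and above it in replicates 2 and 3. Neither treated group passed the test against control for TAGLN or LCN2 (edgeR quasi-likelihood test, adjusted p of 0.552 and 0.994 for Wnt1 and of 0.787 and 0.978 for Wnt1_KP6). That fit had no replicate block, so the gap between replicate 1 and the others counts as spread in it.

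The division into expressed and lacking genes was largely shared by the treated cells. Of the 411 expressed members 404 were also expressed in Wnt1 and 400 in Wnt1_KP6, and of the 280 lacking members 254 and 255 were also lacking. Over the whole table, 10928 and 10846 of the 11055 expressed genes stayed expressed, and 5996 and 5956 of the 6329 lacking genes stayed lacking. In addition, not a gene of the 6329 lacking ones was expressed in either treated group, and not a gene of the 11055 expressed ones was lacking there. Each class needs all 3 libraries of a group, so a gene raised in only some of them counts as low or mixed. Of the lacking genes, 333 in Wnt1 and 373 in Wnt1_KP6 were low or mixed, as were 127 and 209 of the expressed ones. PAX8 was at 249.9 to 269 FPKM in Wnt1 and 238 to 275 FPKM in Wnt1_KP6, against 161 to 206 FPKM in control, without overlap. The differences did not pass the test (log2 fold change 0.44, SE 0.12, adjusted p = 0.209 for Wnt1, and 0.50, SE 0.12, adjusted p = 0.0981 for Wnt1_KP6, edgeR), nor did they with the replicate number as a block (adjusted p = 0.0851 and 0.0555). Of low or mixed genes, NR4A1, an immediate early nuclear receptor, was at 0.431, 0.368 and 0.284 FPKM in control and at 1.72, 196 and 187 FPKM in Wnt1_KP6. Its difference missed the threshold (adjusted p = 0.0691, edgeR), with replicate 1 of Wnt1_KP6 far below the others.

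Few list members passed the test against control. With the edgeR quasi-likelihood test on counts and Benjamini-Hochberg adjustment, 1 of 568 tested members was called in Wnt1 against control, where 16 of 13153 genes were called (0.122%), and 4 of 568 in Wnt1_KP6 against control, where 30 of 13153 were (0.228%). Genes called higher were 0.114% and 0.19% of those tested and genes called lower 0.0076% and 0.038%. The median log2 difference over the tested members was -0.0034 for Wnt1 and 0.038 for Wnt1_KP6, beside -0.0034 and -0.0051 over all tested genes. The 2 comparisons share the control libraries.

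SLCO2B1, an uptake carrier of organic anions (chr11:75100563-75206549, plus strand), was at 45.5, 44.7 and 57.3 FPKM in control, at 84.1, 81.8 and 93.0 FPKM in Wnt1 and at 78.8, 77.3 and 73.1 FPKM in Wnt1_KP6. All 6 treated libraries lay above all 3 control libraries. It rose by a log2 fold change of 0.72 (SE 0.096, adjusted p = 0.0422) in Wnt1 and of 0.66 (SE 0.096, adjusted p = 0.0383) in Wnt1_KP6. TNFRSF10A, a death receptor of TRAIL (chr8:23190452-23225126, minus strand), was at 6.09, 5.95 and 5.71 FPKM in control and at 8.57, 9.30 and 8.31 FPKM in Wnt1_KP6. It rose by a log2 fold change of 0.67 (SE 0.097, adjusted p = 0.0383), without overlap between the groups.

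SLC40A1, the iron exporter ferroportin (chr2:189560579-189583758, minus strand), was at 10.4, 9.72 and 7.92 FPKM in control and at 5.81, 4.28 and 4.72 FPKM in Wnt1_KP6. It fell by 0.84 on the log2 scale (SE 0.12, adjusted p = 0.0388), and all Wnt1_KP6 libraries lay below all control libraries. KRT17, a stress keratin (chr17:41619441-41624842, minus strand), was at 0.476, 0.268 and 0.204 FPKM in control, from 9, 7 and 8 counts, and at 0.832, 1.46 and 0.947 FPKM in Wnt1_KP6. Its log2 fold change on counts was 2.51 (SE 0.35, adjusted p = 0.0383), larger than the ratio of its mean FPKM of 0.316 ± 0.142 and 1.08 ± 0.333 (SD, n = 3 each), and near-identical keratins and pseudogenes could share its reads.

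**Figure D4:**
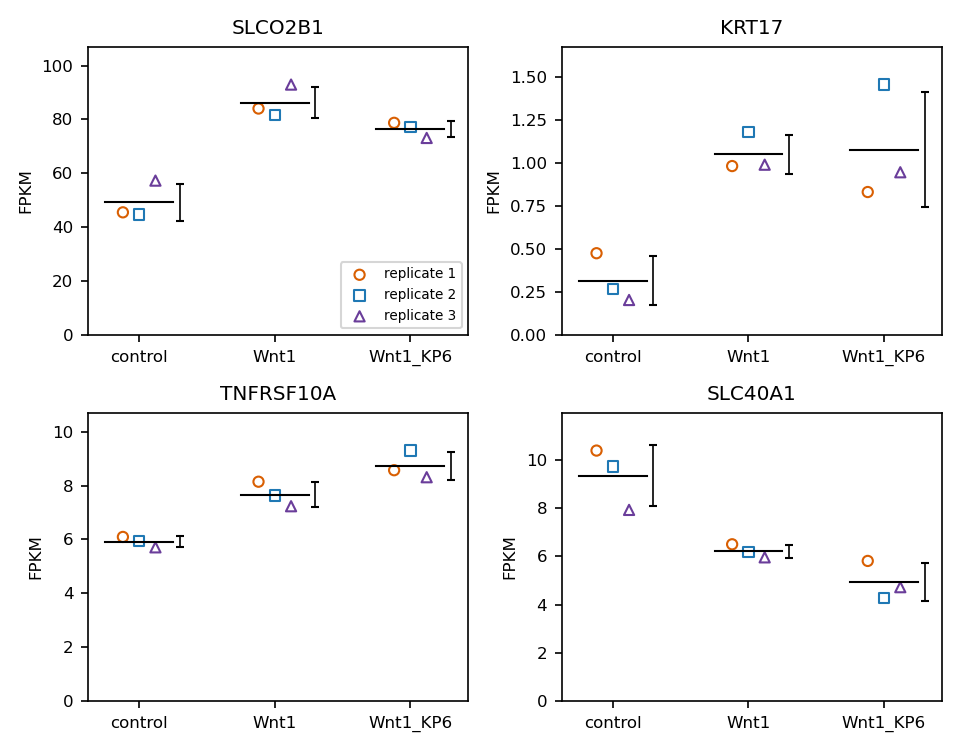
FPKM of the 4 list members called in either comparison with control, by group and replicate; the horizontal line is the group mean and the bar beside it ± 1 SD (n = 3). In SLCO2B1, KRT17 and TNFRSF10A the Wnt1 and Wnt1_KP6 libraries lie above the control libraries, and in SLC40A1 they lie below.

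These counts depended on the libraries. With the replicate number as a block, 9 members were called for Wnt1 and 17 for Wnt1_KP6, beside 95 and 149 of all 13153 tested genes. Without control replicate 1, 61 and 80 of 578 members were called, beside 879 and 1198 of 13268 genes. Without control replicate 2 or 3, Wnt1 replicate 2 or 3, or Wnt1_KP6 replicate 2 or 3, 0 members were called in either comparison. In those fits at most 5 genes of the whole table were called. Without Wnt1 replicate 1 the member counts were 0 and 5, beside 6 and 43 of 13277 genes. Without Wnt1_KP6 replicate 1 they were 3 and 46, beside 43 and 692 of 13305 genes. The 5 log2 fold changes named above kept their sign in each of these fits.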

How the data were processed

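Messenger RNA of the HKC-8 line was measured in 9 libraries of 3 groups, prepared with a NEBNext Ultra kit after oligo(dT) selection and read on an Illumina NovaSeq, per the labels' protocols. Strand is not stated for the kit, so reads of overlapping antisense genes cannot be told apart. The authors deposited expected counts and FPKM per gene. fastp 0.18.0, Bowtie2 2.2.8, HISAT2, StringTie 1.3.1, RSEM and hg38 are named in the submitters' processing notes, with no roles given. The gene annotation they used is not given in the sources used here.

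Columns were matched to samples by title. Of 20323 gene IDs, 20171 matched GENCODE release 29 on GRCh38, the assembly of hg38, which gave coordinates and exon overlaps. The length implied by counts and FPKM differed between libraries for the same gene (median ratio 1.07, 95th percentile 1.33, over 8011 genes at 5 FPKM or more in all libraries), so FPKM ratios carry that error. Of 943 list entries, 939 matched.

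The members and lists were chosen with earlier results of these data known. In each list the text names preset anchor genes, up to 6 expressed genes of highest mean FPKM, up to 3 expressed genes with the largest ratio of 2 or more between control libraries, every called member, and over the table the 15 most abundant protein-coding genes encoded in the nucleus. Not all are printed, and some of the genes this names are not reported here.

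Expected counts were rounded, filtered with filterByExpr and tested with edgeR 4.0.16 in R 4.3.3 (TMM, robust quasi-likelihood, two-sided, Benjamini-Hochberg threshold 0.05), with 3 group means over 9 libraries and no block. Called means past that threshold. Alternatives were DESeq2 1.42.0, RLE size factors, no filter, a replicate block and leaving out each library. The fit was tested on simulated data. Libraries with the same number in their titles deviated together from their group means (all 9 correlations lay between 0.110 and 0.672, across genes), which set the numbers as the block. Differently numbered libraries among replicates 2 and 3 correlated at 0.154 to 0.398, so the correlations separate replicate 1 from the others more than replicate 2 from 3. No replicate pair agreed within sampling noise (chi-square per degree of freedom 13.4 to 142 in control).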

Additional observations from a re-analysis of the deposited data

How the results depend on the processing

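Counts of expressed and lacking genes over the whole table and the 5 groups stayed within 1.5 times in 75 of 78 alternatives, and those of the 26 lists in 316 of 338. The exception among the groups was the count of lacking mesenchymal genes, 3 of 55, which was 1 on the TPM scale, 6 by mean FPKM and 4 to 10 when a control library was left out, with 10 without control replicate 1. Called list members numbered 1 for Wnt1 and 4 for Wnt1_KP6 against control. DESeq2 called 21 and 43, beside 305 and 675 of all 13153 tested genes. The fit with a replicate block, which pairs same-numbered libraries, called 9 and 17, beside 95 and 149 of 13153. RLE size factors and the lack of a filter left both counts at 1 and 4. With a library left out, edgeR called 0 to 61 and 0 to 80. Where it called 0, between 40 and 64 members for Wnt1 and between 60 and 81 for Wnt1_KP6 had an unadjusted p under 0.05. With replicates 2 and 3 of each group only, chosen after seeing the data, 277 and 298 of 559 were called. Over the whole table that fit called 4115 and 5293 of 13041 genes, so many calls were not particular to the lists. SLCO2B1 in Wnt1 had an adjusted p of 4.04e-09 (DESeq2) to 0.325 (edgeR without control replicate 2). The cause was not tested. With 3 control libraries and a few counts per gene, levels under 0.1 FPKM cannot be ranked.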

Other observations

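Over the whole table, list members included, 30 genes had at least 30 counts in control replicate 1 and at most 3 in each of control replicates 2 and 3. They were chosen after their values were seen. LUM, COL1A2, COL3A1, COL6A3, DCN and MMP2 among them are members of the mesenchymal list. Of the 30 genes, 17 also had at least 30 counts in replicate 1 of both Wnt1 and Wnt1_KP6. SPOCK1, a proteoglycan, had 175, 3 and 3 counts in control replicates 1, 2 and 3, with 374, 2 and 0 in Wnt1 and 275, 1 and 0 in Wnt1_KP6. LUM, or lumican, had 64, 3 and 1 counts in control, with 66, 0 and 0 in Wnt1 and 42, 0 and 1 in Wnt1_KP6. Both were thus seen in replicate 1 of every group.

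COL1A2, COL3A1, COL6A3, DCN and MMP2 did not follow this order. COL1A2, a chain of type I collagen, had 197, 2 and 1 counts in control, with 0, 0 and 16 in Wnt1 and 0, 0 and 4 in Wnt1_KP6. COL6A3 had 109, 0 and 1 counts in control, with 1, 0 and 13 in Wnt1 and 0 in all 3 Wnt1_KP6 libraries. DCN, or decorin, had 38, 0 and 0 counts in control, with 0, 0 and 5 in Wnt1 and 0 in all 3 Wnt1_KP6 libraries. COL3A1 had 98, 0 and 3 counts in control, with 1, 2 and 13 in Wnt1 and 0, 1 and 3 in Wnt1_KP6. MMP2 had 35, 0 and 2 counts in control, with 5, 0 and 7 in Wnt1 and 6, 0 and 1 in Wnt1_KP6. All of these genes were therefore highest in control replicate 1 and, at a lower count, present in Wnt1 replicate 3.

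In the other direction, 7 genes had at least 30 counts in both control replicates 2 and 3 and at most 3 in control replicate 1. ALDH1A1, a retinaldehyde dehydrogenase, had 2, 89 and 139 counts in control, with 66, 74 and 2 in Wnt1 and 91, 2 and 1 in Wnt1_KP6. CES1, a carboxylesterase, had 0, 46 and 73 counts in control, with 38, 52 and 0 in Wnt1 and 54, 0 and 0 in Wnt1_KP6. Both genes were thus present in control replicates 2 and 3, Wnt1 replicates 1 and 2 and Wnt1_KP6 replicate 1 and nearly at 0 in the other 4 libraries, a pattern that follows neither the group nor the replicate number.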
